A study of Mus musculus with 12 samples.

Results

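The 10 genes described here encode receptors through which brain cells read signals of appetite and energy balance: Insr, Ntrk2, Lepr, Prlr, Mc3r, Htr2c, Ghsr, Cnr1, Npy1r and Ptger3. They were taken by symbol, not by a threshold on their values, from the 55809 genes of the deposited count tables, and all 10 were present. Earlier results of these data were known when they were chosen. RNA of sorted mouse cells was sequenced in 12 libraries, 3 in each of 4 groups. The TOM positive and TOM negative groups were cells sorted from the hypothalamus of untreated Mc4r-Cre; Ai14 mice aged 4 weeks. Ai14 is a reporter allele that makes the red protein tdTomato (TOM) in cells where Cre has acted, so TOM marks cells with a past or present activity of the Mc4r-Cre driver. The AAV-Cre and AAV-GFP groups were sorted from the PVH, the paraventricular hypothalamic nucleus, in Otp fl/fl; Ai14 animals aged 26 weeks. The nucleus was taken 12 weeks after an adeno-associated virus (AAV) had been injected. The sort gate was TOM positive for AAV-Cre and GFP positive for AAV-GFP. Both AAV groups carried the floxed alleles of Otp, a homeodomain transcription factor gene, and the Ai14 allele, and the effects of Cre and of the sorted colour cannot be told apart. The labels name neither the promoter that drives either virus nor the floxed part of Otp. The series asked which factors regulate Mc4r, and what differs in PVH cells after AAV-Cre.

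Insulin and the neurotrophin BDNF act through receptor tyrosine kinases, whereas leptin and prolactin act through cytokine receptors that signal by JAK kinases and STAT factors. Melanocortins, serotonin, ghrelin, endocannabinoids, neuropeptide Y and prostaglandin E2 act through G-protein-coupled receptors. In the hypothalamus these receptors let neurons of feeding circuits respond to hormones from the periphery and to local transmitters, and several of them are also made by glial or vascular cells.

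Library totals ran from 13506018 to 27827853 counts. The number of genes with at least 1 count was 14747 to 16988 in the AAV-Cre libraries and 20778 to 23902 in the AAV-GFP libraries, with no overlap. It was 16011 to 18160 in the TOM positive and 18453 to 19023 in the TOM negative libraries, again without overlap. Otp counts were 12, 9 and 10 with AAV-Cre against 91, 102 and 38 with AAV-GFP. Mc4r, the gene for which the driver is named, had 63, 0 and 0 counts in TOM positive cells and 0 in every TOM negative library. The series calls the sorted cells neurons. The summed level of 13 neuronal markers was 410 to 489 CPM (counts scaled to the library total) in TOM positive cells, against 77487 to 87983 for 10 oligodendrocyte markers. In TOM negative cells these sums were 65.2 to 105 and 18839 to 24842 CPM, so both lists were higher in TOM positive cells without overlap. Of the markers, 5 of 12 tested neuronal and 10 of 10 oligodendrocyte genes rose, beside 10.4% of all genes tested in the TOM comparison. In the AAV-Cre libraries the sums were 1956 to 2266 and 48092 to 61961 CPM, and in the AAV-GFP libraries 1207 to 2269 and 14480 to 53669. None of the 13 neuronal markers was at 0 throughout any group. Whether replicate libraries stem from different animals is not in the labels. The p-values therefore reflect a spread between libraries that may be technical. Intervals cover counting error only. Lower bounds allow for up to 3 counts in the group at 0 and take the sum of the other group as exact. Neither covers the spread between libraries. In such bulk samples, fewer cells of a type and less RNA per cell cannot be told apart.

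The promoter windows of 3 receptors are shown because Ptger3 and Ntrk2 were the receptors that differed between TOM positive and TOM negative cells, and Npy1r was the tested receptor whose AAV groups did not overlap with TMM scaling. Each is the 250 bases upstream of the RefSeq start on the plus strand of GRCm38.p6, at chr3:157566626-157566875 for Ptger3, chr13:58806319-58806568 for Ntrk2 and chr8:66697172-66697421 for Npy1r. Capitals mark TAAT on either strand, the core shared by many homeodomain binding sites.
Ptger3: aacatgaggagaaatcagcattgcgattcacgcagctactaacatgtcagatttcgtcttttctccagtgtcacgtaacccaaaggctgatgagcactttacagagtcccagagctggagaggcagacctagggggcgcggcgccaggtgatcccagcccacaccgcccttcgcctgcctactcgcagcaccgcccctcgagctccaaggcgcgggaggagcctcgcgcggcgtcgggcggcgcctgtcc
Ntrk2: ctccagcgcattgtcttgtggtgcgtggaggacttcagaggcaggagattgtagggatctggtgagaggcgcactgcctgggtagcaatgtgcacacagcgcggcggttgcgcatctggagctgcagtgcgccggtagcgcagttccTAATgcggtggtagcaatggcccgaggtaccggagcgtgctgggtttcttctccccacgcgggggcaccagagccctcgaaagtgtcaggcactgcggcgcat
Npy1r: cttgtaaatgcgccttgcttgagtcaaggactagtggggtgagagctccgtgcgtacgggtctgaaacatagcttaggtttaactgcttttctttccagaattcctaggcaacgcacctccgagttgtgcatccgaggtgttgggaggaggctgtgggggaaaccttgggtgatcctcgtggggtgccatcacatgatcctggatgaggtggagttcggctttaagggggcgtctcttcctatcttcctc

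The Ntrk2 window held 1 TAAT and the Ptger3 and Npy1r windows held 0. RefSeq windows were matched for 9 of the 10 receptors, 14 windows in all, and Insr had no entry. TAAT on either strand was in 8 of the 14 windows, from 6 receptors, and in 54.9% of all 32851 windows of the same length. The palindrome TAATTA, which contains TAAT, was in 0 of the 14 and in 4.84% of all windows. These matches describe letters only, and binding was not measured.

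Most of these receptors were rare transcripts. Levels can be compared between genes only per length, and on that scale Ntrk2 stood first in every group, at 46.3 CPM per kilobase of annotated exon in TOM positive, 87.9 in TOM negative, 48.3 in AAV-Cre and 60.7 in AAV-GFP cells. No other receptor exceeded 1.26 CPM per kilobase in any group mean, the value of Ptger3 in TOM negative cells. Insr lay between 0.775 and 1.10 CPM per kilobase. Ghsr, the ghrelin receptor, was lowest of the 10 in AAV-GFP cells, at 0.0249, and had no count in the other groups.

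**Figure D1:**
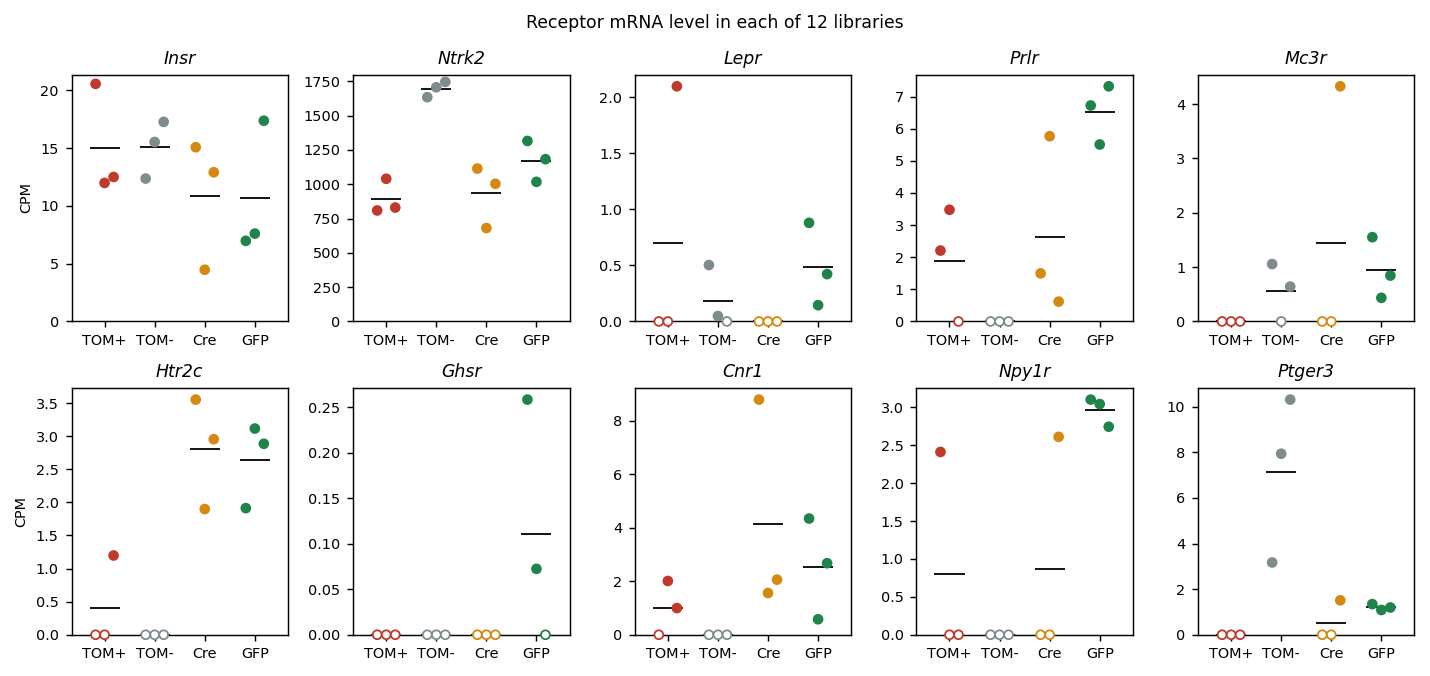
The level of each receptor (CPM, linear axis) is plotted for every library by group, with filled points for libraries that held a count, open points for 0 counts and a black line at the mean of 3 libraries. Ntrk2 reaches 1746 CPM in TOM negative cells, while most other panels hold open points at 0 beside single high libraries.

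How many receptors were counted differed between the groups. Of the 10 receptors, 4, 4 and 5 had a count in the TOM positive libraries and 5, 4 and 4 in the TOM negative libraries. After AAV-Cre the numbers were 5, 5 and 8, and after AAV-GFP they were 10, 10 and 9. Every AAV-GFP library therefore held more of the receptors than any AAV-Cre library, and the same order was seen over all genes with a count. The cause of that difference in detection was not tested.

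Low counts were often present in 1 library and absent from the next. Lepr had 63 counts in the third TOM positive library and 0 in the other two. In TOM positive cells 3 receptors had counts in 1 library, 2 in 2 libraries and 2 in all 3. In AAV-Cre cells 3 receptors had counts in 1 library and 5 in all 3, and in AAV-GFP cells 9 had counts in all 3. Such gaps were common for low genes: of 4686 genes with 20 to 200 counts summed over the TOM positive libraries, 30.9% were counted in a single library. In TOM negative cells this held for 515 of 5127 genes, and the share was 28.9% of 4308 in AAV-Cre and 0.665% of 4960 in AAV-GFP cells.

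**Figure D2:**
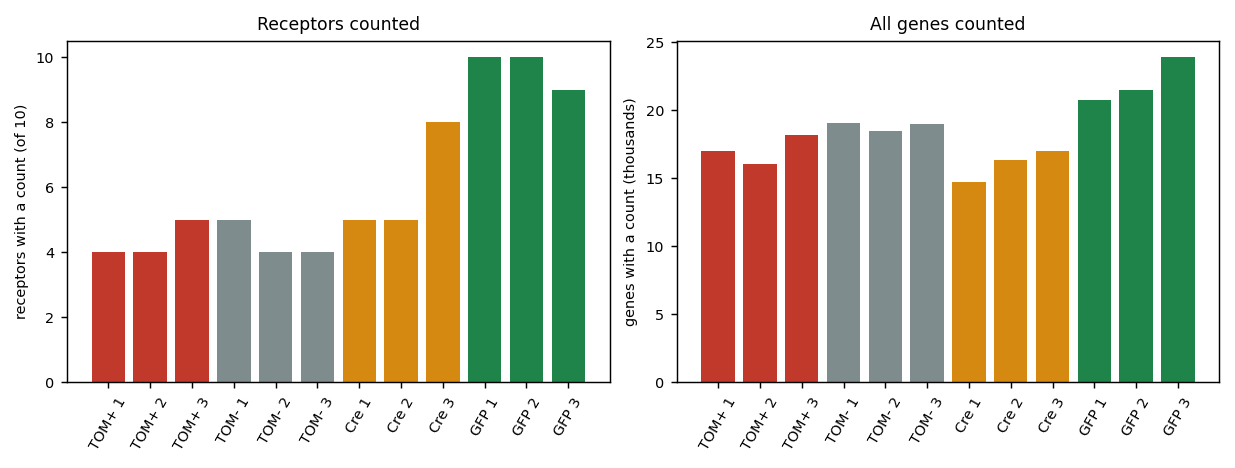
Bars show, for each of the 12 libraries, how many of the 10 receptors had at least 1 count (left) and how many of all genes did (right), both axes from 0. The 3 AAV-GFP libraries are highest on both sides, with 9 or 10 receptors and 20778 to 23902 genes.

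Ntrk2 and Ptger3 were lower in TOM positive than in TOM negative cells, and no receptor passed the test between the AAV groups. In the TOM comparison 3 of the 10 receptors were tested and 2 passed, both lower in TOM positive cells. Ptger3, at 0 in every TOM positive library, met the count filter only through the TOM negative libraries, so it could pass only as lower. Prlr, Cnr1, Npy1r and Htr2c, counted only in TOM positive cells, did not meet the filter. The shared direction of the 2 calls therefore depends in part on the filter. Of 15228 genes tested 23.9% passed, 10.4% as higher and 13.4% as lower. Both called receptors had groups that did not overlap, as did 46.4% of all genes tested, 25.6% with TOM positive cells lower and 20.8% with them higher. In the AAV comparison 8 receptors were tested and 0 passed with edgeR, where 2.6% of 15408 genes passed, 0.63% as higher and 1.97% as lower after AAV-Cre. None of the 8 had an unadjusted p under 0.05, which 18.8% of genes had (36.4% in the TOM comparison), and DESeq2 called 0. Of the 8, 1 receptor, Npy1r, had groups that did not overlap, lower after AAV-Cre, against 28.5% of all genes, 18.6% lower and 9.85% higher. Missing the threshold does not show that a receptor was equal between the groups. Simulated counts at the AAV comparison's size recovered 45.5% of genes changed by 3 on the log2 scale, and at the TOM comparison's size 59%. The changed genes were drawn from those with a mean above 1 CPM, so these shares need not hold for receptors at lower levels.

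**Figure D3:**
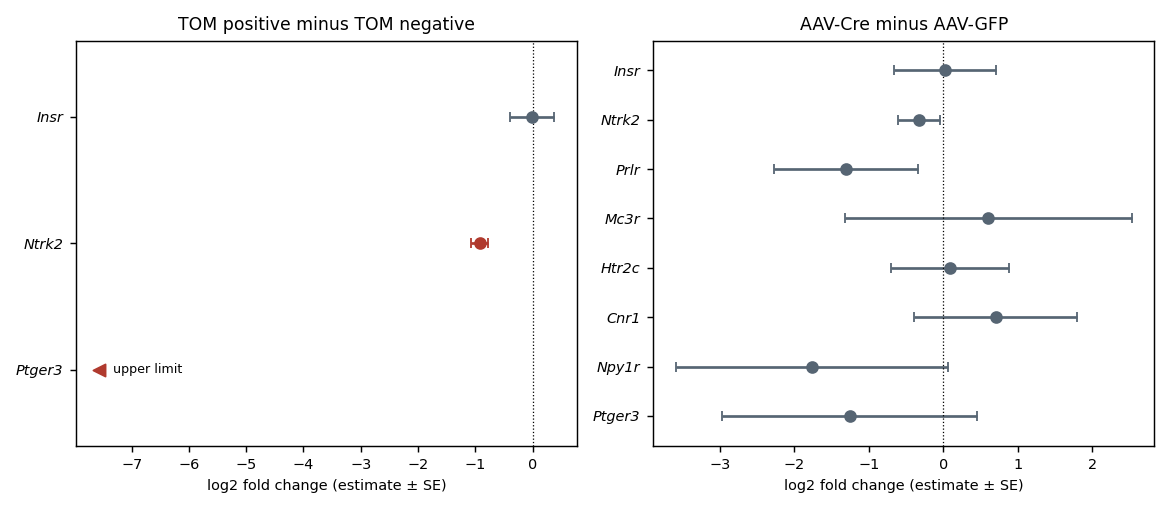
The log2 fold change of each tested receptor (points, with bars of 1 SE) is shown for TOM positive minus TOM negative (left, 3 receptors) and AAV-Cre minus AAV-GFP (right, 8 receptors), in red where the adjusted p was under 0.05. Ptger3 on the left is a triangle at its bound and lies at that value or further below 0, Ntrk2 is at -0.93, and every interval of 1 SE on the right but those of Ntrk2 and Prlr reaches 0.

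Among the receptor tyrosine kinases, Ntrk2 was lower in TOM positive than in TOM negative cells. It encodes TrkB, the receptor of BDNF, whose loss causes overeating and obesity in mice. It had 809, 1040 and 830 CPM in the TOM positive libraries and 1634, 1707 and 1746 CPM in the TOM negative libraries. All 3 TOM positive libraries lay below all 3 TOM negative ones. The mean was 893 ± 128 against 1696 ± 56.9 CPM (SD, n = 3), a log2 fold change of -0.93 ± 0.14 (SE; edgeR adjusted p = 0.0048). In AAV cells Ntrk2 had 1114, 681 and 1003 CPM after AAV-Cre and 1315, 1017 and 1183 CPM after AAV-GFP. These groups overlapped, and the log2 fold change of -0.33 ± 0.28 did not pass (edgeR adjusted p = 0.600).

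Ntrk2 is strongly made by astrocytes as well as by neurons, so its values are given beside those of 9 astrocyte markers. The summed markers were 9842 to 13411 CPM in TOM positive and 19339 to 20337 CPM in TOM negative cells, with no overlap. None of the 9 was at 0 throughout a group, and 2 of 9 fell, where Agt fell by 1.67 ± 0.20 and Aldh1l1 fell by 0.72 ± 0.21 on the log2 scale (SE, n = 3; edgeR adjusted p = 0.00184 and 0.0416). The other 7 did not pass. Of these, Aqp4 and Slc4a4 had higher means in TOM positive cells, at 241 and 230 CPM against 155 and 198 CPM. The rest had lower means there. The median log2 fold change of the 9 was -0.23, and of all genes tested 13.4% fell. As a share of the summed markers, a measure chosen after the values were seen, Ntrk2 was 8.22, 7.75 and 8.02% in TOM positive and 8.41, 8.39 and 9.03% in TOM negative cells. That is a mean of 8.0 ± 0.234% against 8.61 ± 0.361% (SD, n = 3), a log2 difference of -0.11. Agt alone had 2387 to 3920 CPM in TOM positive and 8906 to 10731 CPM in TOM negative cells. Without Agt the 8 remaining markers summed to 7130 to 9490 CPM in TOM positive and 8798 to 10433 CPM in TOM negative cells. Those sums overlapped. As a share of them, Ntrk2 was 11.2 ± 0.430% against 17.7 ± 0.921%, a log2 difference of -0.67. The 2-sided exact permutation p was 0.1 for either share, the smallest that 3 against 3 libraries allow. For either share the TOM positive libraries lay below the TOM negative ones, and the size of the difference changed when Agt was left out. The part of astrocytes in the Ntrk2 difference was not tested. In AAV cells the share of the 9 markers was 8.19 ± 1.01% after AAV-Cre and 8.04 ± 3.28% after AAV-GFP (exact permutation p = 1).

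**Figure D4:**
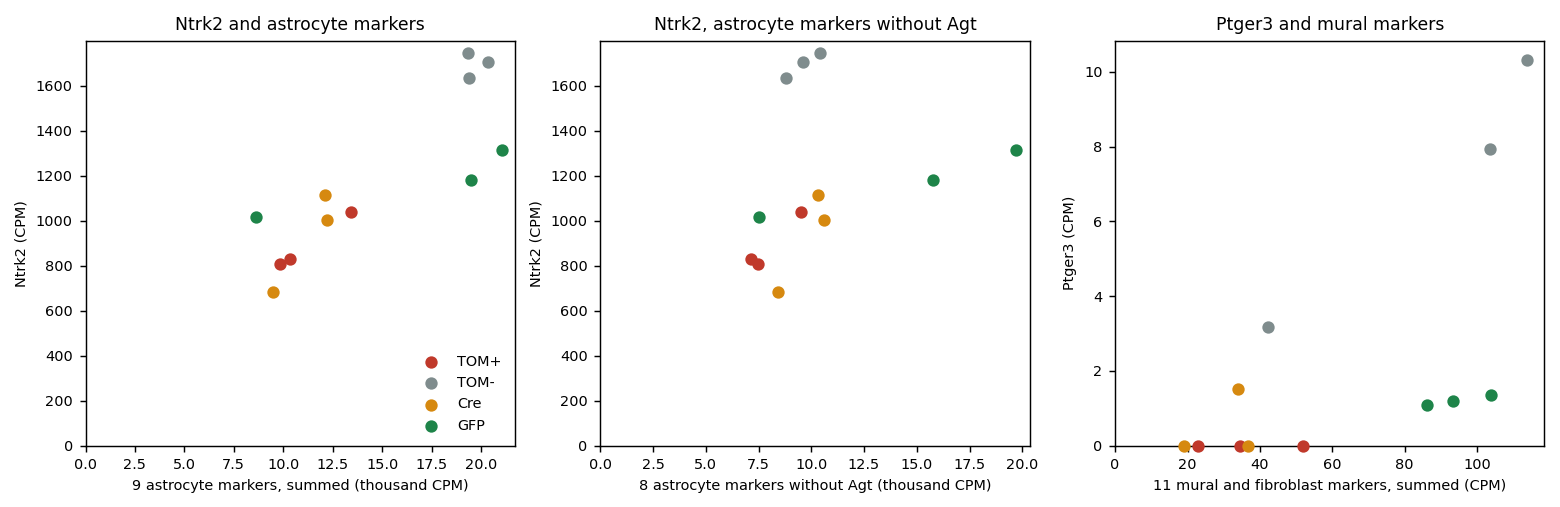
Each point is a library: Ntrk2 against the summed astrocyte markers with Agt (left) and without it (middle), and Ptger3 (CPM) against the summed mural and fibroblast markers (right). TOM negative libraries, at 1634 CPM or more, stand above all others in Ntrk2, and are apart from the TOM positive libraries along the left axis but overlap them along the middle one.

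Insr, the insulin receptor, passed in neither comparison. It had 20.6, 12.0 and 12.5 CPM in TOM positive and 12.4, 15.5 and 17.3 CPM in TOM negative cells, and the groups overlapped. The log2 fold change was -0.00 ± 0.39 (SE, n = 3; edgeR adjusted p = 0.995). After AAV-Cre it had 15.1, 4.48 and 12.9 CPM, and after AAV-GFP 6.98, 7.61 and 17.4 CPM. The log2 fold change of 0.02 ± 0.68 was small beside its SE (edgeR adjusted p = 0.991). The lowest AAV-Cre library lay below every AAV-GFP library and the other two within their range.

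The cytokine receptors were scarce. Lepr, the leptin receptor, had 0, 0 and 63 counts in TOM positive and 10, 1 and 0 in TOM negative cells. A single TOM positive library thus held all counts of its group. After AAV-Cre it had 0 counts in all 3 libraries, and after AAV-GFP 17, 2 and 6. Its level in the AAV-Cre group was at least 7.98-fold lower, against a floor of 3 counts over the group. The groups did not overlap, but Lepr was too low for the main test, and with no count filter the edgeR adjusted p was 0.194.

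Prlr, the prolactin receptor, had 43, 102 and 0 counts in TOM positive cells and 0 in every TOM negative library. The TOM positive sum was higher, at least 38.2-fold, but 1 library at 0 made the groups overlap. The gene was removed by the main count filter. It passed with DESeq2 (adjusted p = 0.0262) and without the third TOM positive library (edgeR adjusted p = 0.0329), and not with edgeR and no count filter (adjusted p = 0.101). In AAV cells counts were 24, 85 and 9 with AAV-Cre against 130, 76 and 104 with AAV-GFP. That was 2.63 ± 2.75 against 6.52 ± 0.923 CPM (SD, n = 3), with 1 AAV-Cre library inside the AAV-GFP range. The log2 fold change of -1.31 ± 0.97 did not pass (edgeR adjusted p = 0.532), and without the second AAV-Cre library it was -2.62 (adjusted p = 0.188). The exons of Prlr share bases with a predicted gene, Gm21973, that had 0 counts in all libraries.

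Among the G-protein-coupled receptors, Ptger3 stood apart in the TOM comparison. It encodes the EP3 receptor of prostaglandin E2, known for its part in fever. It had 0 counts in all 3 TOM positive libraries and 63, 164 and 225 in the TOM negative libraries, or 3.17, 7.94 and 10.3 CPM. The level in TOM positive cells was at least 191-fold lower, and the difference passed (edgeR adjusted p = 0.00663). After AAV-Cre there were 0, 0 and 22 counts and after AAV-GFP 26, 15 and 17. The highest AAV-Cre library was above every AAV-GFP library on the CPM scale and the other two were at 0. The log2 fold change of -1.25 ± 1.71 (SE, n = 3) did not pass (edgeR adjusted p = 0.761).

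Sums of markers of other cell types are given beside Ptger3. The sum of 11 mural cell and fibroblast markers was 42.2, 104 and 114 CPM in the TOM negative libraries and 23.0 to 52.0 CPM in TOM positive cells, with overlap. The TOM negative library lowest in Ptger3 was lowest in this sum and also in the endothelial and red blood cell sums. The TOM negative library highest in Ptger3 was highest in the mural and fibroblast sum and lowest in the microglial sum. In the endothelial and red blood cell sums it lay between the other TOM negative libraries. With so few libraries such ranks are description only. In AAV-GFP cells the mural and fibroblast sum was 86.3 to 104 CPM, with Ptger3 at 1.09 to 1.34 CPM. Of the mural and fibroblast markers, Kcnj8, Abcc9 and Myh11 were at 0 in TOM positive cells, and 2 of 8 tested fell. Microglial markers summed to 418 to 982 CPM in TOM positive and 24826 to 29321 CPM in TOM negative cells, where 10 of 10 fell. Endothelial markers were at 0.170 to 63.6 and 383 to 522 CPM, where 4 of 8 fell. Red blood cell markers were at 224 to 444 and 22604 to 51385 CPM, and all 5 fell. Beside these counts, 13.4% of all genes tested fell. The part of these cells in the Ptger3 difference was not tested.

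The other G-protein-coupled receptors had too few counts for the main TOM test. Npy1r, a neuropeptide Y receptor, had 47, 0 and 0 counts in TOM positive cells and 0 in TOM negative cells. Cnr1, the cannabinoid receptor of neurons, had 0, 59 and 30 against 0 in every TOM negative library. Htr2c, a serotonin receptor whose loss leads to overeating, had 0, 0 and 36 against 0. The TOM positive sums were higher, at least 12.4-fold, 23.4-fold and 9.48-fold, and each TOM positive group contained a library at 0, so none was separated. Mc3r, a melanocortin receptor, went the other way, with 0 counts in TOM positive and 21, 0 and 14 in TOM negative libraries, at least 14.8-fold lower. With no count filter none of these passed, with edgeR adjusted p-values of 0.224 for Npy1r, 0.135 for Cnr1, 0.251 for Htr2c and 0.166 for Mc3r. Ghsr had 0 counts in all 6 TOM libraries, which allows up to 3 counts over a group.

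In the AAV cells Npy1r had 0, 0 and 38 counts with AAV-Cre against 60, 42 and 39 with AAV-GFP, or 0.870 ± 1.51 against 2.96 ± 0.192 CPM (SD, n = 3). The AAV-Cre libraries all lay below the AAV-GFP libraries, the highest at 2.61 CPM beside a lowest of 2.74. On library totals without scaling factors these values were 2.81 and 2.43, and the groups overlapped. The ratio of summed counts was 0.281 (95% interval 0.191 to 0.405), and the log2 fold change of -1.76 ± 1.83 did not pass (edgeR adjusted p = 0.679). Mc3r had 0, 0 and 63 counts with AAV-Cre against 30, 6 and 12 with AAV-GFP, so its highest and its lowest libraries were both in the AAV-Cre group (log2 fold change 0.60 ± 1.93; edgeR adjusted p = 0.914). Ghsr had 0 counts in the AAV-Cre libraries and 5, 1 and 0 in the AAV-GFP libraries, at least 1.91-fold lower, and was below the count filter (edgeR adjusted p = 0.400 with no filter).

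Htr2c and Cnr1 were counted in every AAV library. Htr2c had 57, 28 and 43 counts with AAV-Cre against 37, 43 and 41 with AAV-GFP, or 2.80 ± 0.837 against 2.64 ± 0.638 CPM (SD, n = 3). The groups overlapped (log2 fold change 0.09 ± 0.79; edgeR adjusted p = 0.974). Cnr1 had 141, 23 and 30 against 84, 8 and 38 counts, or 4.14 ± 4.04 and 2.53 ± 1.89 CPM. Its libraries spread widely within both groups (log2 fold change 0.70 ± 1.09; edgeR adjusted p = 0.795).

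The third AAV-Cre library decided several of these values. All 3 AAV-Cre libraries were at 0 for Lepr and Ghsr, and the third was the only one with counts of Mc3r, Npy1r and Ptger3. Without it, Mc3r, Npy1r and Ptger3 had 0 counts after AAV-Cre, and edgeR adjusted p-values were 0.0825, 0.0608 and 0.0682. The fitted log2 fold changes of -6.90, -8.54 and -7.25 then depend on the prior count and are no bound. Markers of other cells also differed between the AAV groups: endothelial sums were 0.0623 to 35.0 CPM after AAV-Cre and 237 to 434 after AAV-GFP, and ependymal and tanycyte sums 24.7 to 35.7 and 782 to 1504. Mural cell and fibroblast sums were 19.1 to 36.8 and 86.3 to 104 CPM, and red blood cell sums 0.312 to 42.7 and 707 to 4690. Microglial sums were higher after AAV-Cre, at 5289 to 10408 against 2638 to 4626 CPM without overlap, while neuronal and oligodendrocyte sums overlapped. Among single markers, 2 of 10 oligodendrocyte, 1 of 6 oligodendrocyte precursor and 1 of 10 microglial genes rose. Of those tested, 1 of 7 endothelial, 1 of 7 mural and fibroblast, 3 of 9 ependymal and tanycyte and 2 of 5 red blood cell genes fell. Over all genes tested, 0.63% rose and 1.97% fell. The part of these cells in the receptor values was not tested.

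Set side by side over the 4 groups, the receptors had different orders. The tables were scaled separately, so levels across them are descriptive. Ntrk2 was highest in TOM negative cells, apart from all AAV-GFP libraries, and the other neighbours in its order overlapped. Ptger3 was likewise highest in TOM negative cells, with all 3 libraries above those of AAV-GFP cells. Htr2c was 1.90 to 3.55 CPM in the 6 AAV libraries and 0 to 1.20 CPM in the 6 TOM libraries, so that AAV-GFP cells lay above TOM positive cells without overlap. Prlr, Npy1r and Ghsr had their highest mean in AAV-GFP cells, Mc3r and Cnr1 in AAV-Cre cells, and Lepr in TOM positive cells. For Npy1r the AAV-GFP libraries did not overlap the next group, AAV-Cre, with TMM scaling factors, and for the other five the neighbouring groups overlapped. The order was the same for 8 of 10 receptors when all 12 libraries were scaled together, and TOM positive and AAV-Cre cells changed places for Ntrk2 and Npy1r.

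Only Insr and Ntrk2 had a mean of at least 5 CPM over the 12 libraries, so likeness of pattern was measured for these. By the root mean square difference of centred log2(CPM + 1) values over 12 libraries, among 11102 genes, the nearest to Insr were Cops5 at 0.287, Eif3m at 0.296 and Gtf2b at 0.324. The nearest to Ntrk2 were Pgm1 at 0.172, Fads2 at 0.209 and Pex10 at 0.212.

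Of 149 genes listed as ligands, signalling partners and related receptors of the 10, 87 were tested in the TOM comparison. There, 11 rose and 16 fell in TOM positive cells, 31.0% of those tested beside 23.9% of all genes, with a median log2 fold change of -0.17 beside -0.02. Of all genes 10.4% rose and 13.4% fell, and these shares also stand beside the counts of single lists below. In the AAV comparison 2 of 107 passed, both lower, 1.87% beside 2.6% of all genes, with a median of -0.20 beside -0.16.

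Of 14 genes of the JAK-STAT signalling of leptin and prolactin, 1 rose and 3 fell in TOM positive cells. Socs3, an inhibitor of leptin signalling, had 8.73 ± 1.95 CPM against 203 ± 33.9 CPM (SD, n = 3), a log2 fold change of -4.54 ± 0.26 (SE; edgeR adjusted p = 0.00011). Ptpn1, a phosphatase that dampens leptin and insulin signals, fell by 2.27 ± 0.19, and Socs1 fell by 2.44 ± 0.49. Ptpn11, a phosphatase that carries receptor signals to the MAP kinases, rose by 1.26 ± 0.26. Its call held in 4 of the 6 fits without 1 library, and that of Socs1 in 5. Microglial markers, given above, also fell in the TOM positive libraries, and their part was not tested. After AAV-Cre 0 of the 14 passed.

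Of 20 insulin signalling genes, 4 rose and 1 fell in TOM positive cells, beside 10.4% and 13.4% of all genes tested. The catalytic subunit gene Pik3ca rose by 1.93 ± 0.33, Gsk3b by 1.70 ± 0.32 and Pdpk1 by 1.63 ± 0.31 on the log2 scale, while the kinase gene Akt1 fell by 1.15 ± 0.16. The other gene that rose, Tsc1, by 2.22 ± 0.51, is named after its value was seen. The Pdpk1 and Tsc1 calls were lost without the second TOM negative library. The oligodendrocyte and neuronal markers, given above, also rose in the TOM positive libraries, and their part was not tested. Of 9 tested neurotrophin genes, the adaptors Gab1 rose by 1.30 ± 0.35 and Shc1 fell by 1.15 ± 0.34. The Shc1 call was lost when any 1 library was left out, and the Gab1 call for 4 of the 6. Bdnf, the ligand of TrkB, named after its values were seen, did not pass in either comparison (edgeR adjusted p = 0.153 and 0.842). After AAV-Cre 0 of 20 insulin and 0 of 9 neurotrophin genes passed.

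Of 9 tested endocannabinoid genes, 2 rose and 3 fell in TOM positive cells. Faah, which breaks down anandamide, rose by 1.19 ± 0.23, and the hydrolase Abhd12 fell by 1.85 ± 0.15. Daglb, a diacylglycerol lipase, fell by 2.72 ± 0.30, and Napepld, named after its value was seen, rose by 2.46 ± 0.50. Cnr2, the cannabinoid receptor of immune cells, had 0 counts in TOM positive cells and 194, 585 and 438 in TOM negative cells, at least 513-fold lower, whereas Cnr1 had 0 counts in the TOM negative cells. Of 4 tested melanocortin genes Atrn rose by 2.04 ± 0.39. The receptor Mc4r, likewise named after its values were seen, had 22, 11 and 13 counts after AAV-GFP and 0 after AAV-Cre (edgeR adjusted p = 0.0596).

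Of 13 tested prostaglandin genes, 2 rose and 5 fell in TOM positive cells, with a median log2 fold change of -0.82. The degrading enzyme gene Hpgd fell by 4.26 ± 0.40 and the synthase gene Hpgds fell by 2.79 ± 0.45. Named after their values were seen, the synthase genes Ptgs1 and Tbxas1 fell by 4.67 ± 1.02 and fell by 5.57 ± 1.13, and Ptges3 rose by 0.72 ± 0.17. Of the 6 fits without 1 library, the Ptges3 call held in 2, the Ptgs1 call in 3 and the Tbxas1 call in 5. The microglial markers also fell in the TOM positive libraries, here and for the endocannabinoid genes, and their part was not tested. The E2 receptor genes went different ways: Ptger4 had 0 counts against 58, 62 and 39, at least 67.1-fold lower, like Ptger3, whereas Ptger1 had 31, 62 and 45 against 0, at least 36.4-fold higher. After AAV-Cre the one call among 11 was Ptges3, whose log2 fold change was -1.67 ± 0.32 (SE, n = 3; edgeR adjusted p = 0.0462). Of 12 serotonin receptors, 2 were tested in the TOM and 8 in the AAV comparison, and Htr5b was the one called in each. It had 45, 55 and 37 counts in TOM negative and 0 in TOM positive cells, at least 57.8-fold lower. After AAV-Cre Htr5b had 0, 1 and 0 counts, and after AAV-GFP 25, 202 and 250, a ratio of AAV-GFP to AAV-Cre of 457 (95% interval 81.6 to 18077; edgeR adjusted p = 0.0451). The AAV groups of Htr2c, by contrast, overlapped, and the difference between the 2 receptors was not tested. Both AAV calls were lost when any 1 library was left out, with adjusted p-values up to 0.180.

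Among the other receptors of energy balance, 0 of 14 tested rose and 2 fell, where Ramp1 fell by 1.58 ± 0.22 and Ramp2 fell by 1.97 ± 0.29, both accessory proteins of calcitonin-family receptors. After AAV-Cre 0 of 25 of these passed, as did 0 of 7 melanocortin, 0 of 8 endocannabinoid, 0 of 2 ghrelin and growth hormone and 0 of 3 neuropeptide Y genes. In the TOM comparison 1 ghrelin and growth hormone gene and 1 neuropeptide Y gene were tested, and 0 passed. The hormone genes Lep, Ins1 and Prl had 0 counts in every library, and Ins2 had 1 count in 1 TOM negative library. Of the 27 genes called in the TOM comparison, 12 passed in every fit without 1 library, and 13 were lost without the second TOM negative library.

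**Figure D5:**
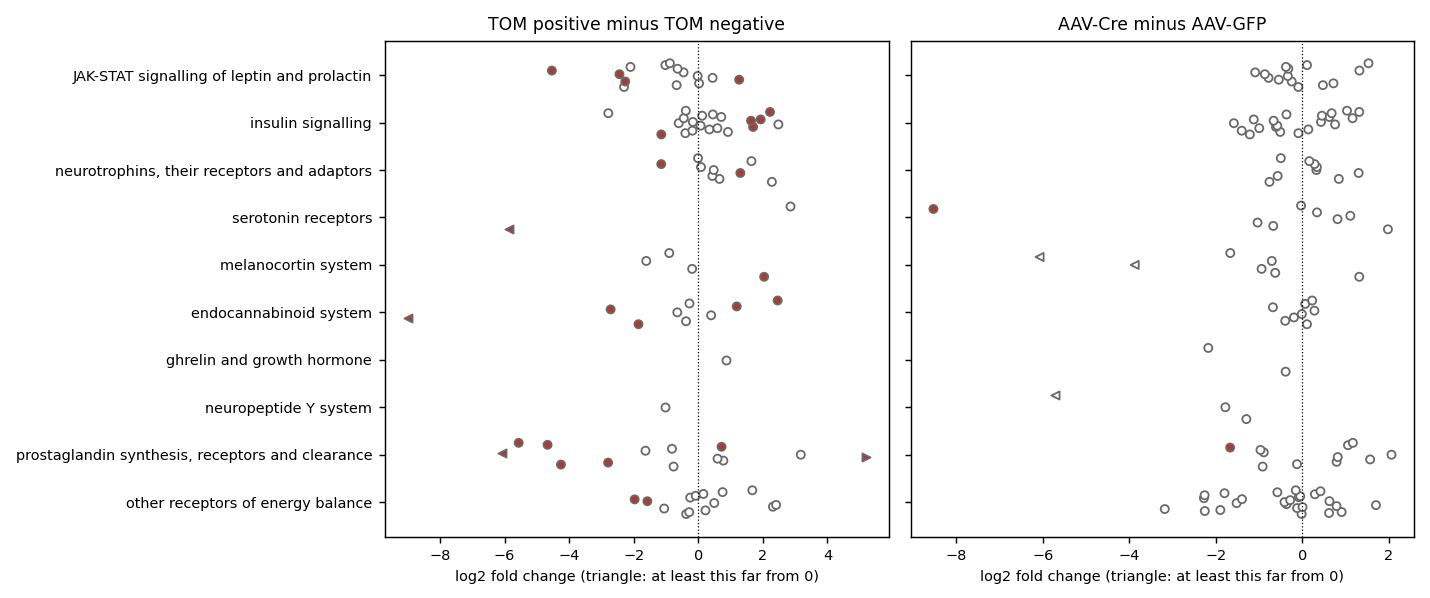
Each point is a tested gene of a list related to the receptors, placed at its log2 fold change in the TOM comparison (left) and the AAV comparison (right), red where the adjusted p was under 0.05. Triangles mark genes with a group at 0, placed at the bound, and lie at that value or further from 0: 27 red points stand on the left and 2 on the right.

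On the vM30 annotation named in the headers of the AAV files, Ntrk2 lies on chromosome 13 at 58954383 to 59281784 and Ptger3 on chromosome 3 at 157272529 to 157351525, both on the plus strand, with 19292 and 5688 annotated exonic bases. Npy1r lies on chromosome 8 at 67149844 to 67159444 and Insr on the minus strand of the same chromosome at 3172061 to 3329617. Lepr lies on chromosome 4 at 101574601 to 101672549 and Prlr on chromosome 15 at 10177324 to 10349266. Mc3r lies on chromosome 2 at 172090412 to 172093034, Htr2c on chromosome X at 145745509 to 145980273, Ghsr on chromosome 3 at 27425500 to 27432159 and Cnr1 on chromosome 4 at 33924593 to 33948831. Prlr was the one receptor whose exons shared bases with another annotated gene.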

How the data were processed

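Members and lists were chosen with earlier results of these data known. The authors deposited unnormalized whole-number counts per gene symbol in 2 joint tables. The submitters' processing notes name FastQC, Trim Galore, STAR and featureCounts and the mm10 build. Per the file headers, AAV read pairs were assigned by featureCounts 2.0.1 to GENCODE vM30 genes, with no strand option and no multi-mapping reads. For the TOM table the sources used here give no such settings. Without strand, reads of antisense partners cannot be told apart. Single AAV files, 6 in number, equalled their joint table columns.

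Separate fits of 6 libraries per comparison used edgeR 4.0.16 in R 4.3.3 (TMM scaling, filterByExpr at a minimum count of 10, quasi-likelihood test, two-sided). Benjamini-Hochberg adjustment covered all genes tested, with a threshold of 0.05. CPM used TMM-scaled totals, and the SE was derived from the F statistic. A fold against a group at 0 is a bound from 3 counts over the group, and ratios of summed counts have exact binomial 95% intervals. Groups came from the labels. Alternatives were RLE size factors, no scaling, no count filter, the replicate number as a block, DESeq2 1.42.0, mitochondrially encoded genes removed and leaving out each library. The fits were tested on simulated data. Named genes were all receptors and, of each list, every gene that passed, or the 4 with the smallest p where more did. Genes outside this rule (Bdnf, Mc4r, Tsc1, Napepld, Ptgs1 and Tbxas1, Ptges3 in the TOM comparison, Otp and the hormone genes) were named after their values were seen. Marker genes are given beside the results as description.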

Additional observations from a re-analysis of the deposited data

How the results depend on the processing

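Ntrk2 and Ptger3 passed as lower in TOM positive cells under all 12 alternatives, with adjusted p from 9.36e-08 to 0.0299 and from 4.23e-10 to 0.0496, and the log2 fold change of Ntrk2 ran from -1.05 to -0.66. The number of receptors higher in TOM positive cells was 0, and 1 with DESeq2, and 0 to 1 without single libraries, which was Prlr. In the AAV comparison 0 receptors passed in every setting. Over all genes, 3635 passed in the TOM comparison, 1987 with the replicate block, 5521 with DESeq2 and 1511 to 3547 without single libraries, lowest without the second TOM negative library. In the AAV comparison 400 passed, 712 with no count filter, 0 with the replicate block, 1884 with DESeq2 and 0 to 296 without single libraries. It was 0 without the first or the third AAV-GFP library, 2 without the second and 122 without the second AAV-Cre library. The causes were not tested.

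The log2 fold changes of Insr, Mc3r, Htr2c and Cnr1 changed sign in some settings. Their main values in the AAV comparison were 0.02, 0.60, 0.09 and 0.70, each smaller than its SE. For Insr in the TOM comparison the value was 0.25 with no scaling and -0.30 to 0.13 without single libraries. In the AAV comparison the replicate block gave -0.038 for Insr and -3.34 for Mc3r. Without single libraries it ran from -0.30 to 0.65 for Insr, -6.90 to 1.22 for Mc3r, -0.12 to 0.30 for Htr2c and -0.49 to 1.39 for Cnr1. The other 117 values of single receptors kept their direction and their side of the threshold. Same-numbered libraries did not deviate together (r from -0.05 to 0.04 in the TOM and -0.09 to -0.07 in the AAV comparison). With 3 libraries per group, such values cannot show whether the numbers pair the samples. Leaving out scaling factors moved the median log2 fold change of all genes by 0.26 in the TOM and 0.16 in the AAV comparison. Low counts in 1 library and 0 in the next limit what could be tested for the low receptors.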
